A study of Mus musculus with 12 samples.

Results

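The genes described here are 9 imprinted genes with a known history in differentiating muscle: the noncoding RNAs H19, Meg3, Rian and Mirg and the protein-coding genes Dlk1, Peg3, Mest, Plagl1 and Grb10. They were taken by symbol, as rows of the deposited counts table whose Ensembl identifiers carry these names in GENCODE on GRCm38, and they are 9 of 55487 genes in the table. An imprinted gene is transcribed mainly from the copy inherited from 1 parent, because a differentially methylated control region silences the other copy. Imprinted genes lie in clusters in which a noncoding RNA and growth-related proteins are often expressed from opposite parental copies, and many of them are high in the embryo and in young muscle and low in most adult tissues. Plagl1 encodes a zinc finger transcription factor that has been described as a regulator of several of the others, which is why they are often discussed as a network.

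The cells were C2C12 myotubes, a mouse myoblast line that fuses into multinucleated fibres when serum is reduced. All cultures were differentiated for 5 days in medium with 2% horse serum. Each was then kept for 24 h either in 4% horse serum (libraries 1 to 6) or in 4% STEM (libraries 7 to 12), a secretome product made from partially differentiated human pluripotent stem cells. Total RNA was sequenced, with 6 libraries per group. C2C12 is a single established cell line without blood vessels, nerves or immune cells, so the cultures model the muscle cell alone. STEM took the place of horse serum, so that the addition of STEM and the removal of horse serum cannot be told apart. The labels do not say how the 6 libraries of a group relate to separate cultures, and p-values measure the spread between these libraries, which may be technical.

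Libraries held 13285472 to 18254882 counts with horse serum and 14909485 to 24536264 with STEM. Horse serum library 6 stood apart from the other 5: its summed CPM (counts scaled to library size) of 25 myotube markers were 19681 against 35830 to 38287, it was the lowest of its group for 24 of the 25, and its summed myoblast and reserve cell markers, 2200 CPM, were the highest. STEM libraries held 29384 to 36098 CPM of the myotube markers. All 25 myotube markers were tested, and none was at 0. Of the markers of other cell types, 2 of 8 leukocyte and endothelial genes (Adgre1, Kdr), 3 of 8 fat cell genes (Plin1, Cidec, Lep) and 3 of 6 pluripotency genes (Pou5f1, Sox2, Zfp42) were at 0 in every library. The other leukocyte and endothelial genes had up to 87 counts in a library, with sums of 2.36 to 6.07 CPM; the only one tested was not called, and without library 6, 1 of 2 tested was called higher. The other pluripotency genes had up to 11 counts in a library and none was tested. The results for the members are therefore given with and without library 6. In bulk RNA, fewer cells of a type and less RNA per cell cannot be told apart.

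Several members are also hosts of microRNAs, and these sequences are shown first because a microRNA can act on the transcripts of other genes. By coordinates, mature miRNAs of the RefSeq annotation (GRCm38.p6) lie inside H19 (2), Meg3 (3), Rian (6), Mirg (26) and Mest (2), all on the strand of the host. Capitals mark the seed, bases 2 to 8, with which a miRNA pairs to its targets.
miR-675-5p, in H19, chr7:142577112-142577133, minus strand: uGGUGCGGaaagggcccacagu
miR-675-3p, in H19, chr7:142577078-142577099, minus strand: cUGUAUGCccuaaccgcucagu
miR-335-5p, in Mest, chr6:30741314-30741336, plus strand: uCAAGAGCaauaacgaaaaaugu
miR-335-3p, in Mest, chr6:30741354-30741375, plus strand: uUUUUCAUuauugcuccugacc
miR-770-5p, in Meg3, chr12:109563710-109563731, plus strand: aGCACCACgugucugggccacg
miR-370-3p, in Rian, chr12:109618305-109618326, plus strand: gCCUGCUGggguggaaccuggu
miR-134-5p, in Mirg, chr12:109734145-109734166, plus strand: uGUGACUGguugaccagagggg

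The counts refer to genes and not to mature miRNAs, since 22-base RNAs are not what a total RNA library of this kind captures, so the levels of these miRNAs were not measured. Among the hairpin genes themselves, Mir675 had 0 counts in all 12 libraries and Mir335 had 75 counts in all, with at most 12 in a library. No seed of the H19 or Mest miRNAs was found in another mature miRNA of the RefSeq table.

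Of the 9 members, 5 passed the filter on low counts and were tested with edgeR (quasi-likelihood F, Benjamini-Hochberg adjustment over 14175 genes). Mest and Plagl1 rose with STEM, H19 and Peg3 fell, and Grb10 did not pass the test with all 12 libraries. Meg3, Rian, Mirg and Dlk1 were at or near 0 counts in both media. Across all genes tested, 36.4% were called, 18.9% higher and 17.4% lower with STEM, so 4 calls among 5 genes describe these genes and are not set against chance, and the 4 members without a test stand outside that count. Without library 6, 50.8% of all 14267 genes tested were called, and all 5 tested members were among them, 2 higher and 3 lower. Horse serum and STEM libraries were fully separate for Peg3, Mest and Plagl1, against 17.2% of all genes tested, and without library 6 they were separate for H19 too, against 33.3%. The median log2 fold change of all genes tested was 0.012.

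H19 is a maternally expressed noncoding RNA of the Igf2 cluster and one of the RNAs that accumulate when myoblasts fuse. It lies at chr7:142575529-142578143 on the minus strand (GRCm38), with 2460 bp of exon sequence. It dominated the set: H19 made up 96.3% of all counts of the 9 members, and 1.25% ± 0.37 of all counts with horse serum and 0.809% ± 0.096 with STEM (SD, n = 6).

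With horse serum, H19 had 5124 CPM in the lowest library, 13549 at the median and 16685 in the highest. With STEM, the lowest, median and highest values were 6682, 8267 and 9120 CPM. The lowest horse serum value was that of library 6, which lay under every STEM library, while the other 5 lay above all 6 of them, from 12901 CPM up. H19 fell by 0.66 on the log2 scale (SE 0.22, 95% interval -1.13 to -0.19, edgeR adjusted p = 0.0314), and the exact permutation test on log2 CPM gave a two-sided p = 0.0584. Without library 6 the log2 fold change was -0.82 (SE 0.086, edgeR adjusted p = 2.66e-06), and the exact permutation p was 0.00216, the smallest that 462 regroupings can give. With all 12 libraries the call was narrow: leaving out horse serum library 1, 2, 3, 4 or 5 or STEM library 9, 11 or 12 raised edgeR's adjusted p to between 0.0509 and 0.0745, with log2 fold changes of -0.57 without horse serum library 1, -0.62 without 2, -0.65 without 3, -0.64 without 4, -0.66 without 5, -0.67 without STEM library 9, -0.61 without 11 and -0.63 without 12.

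Most myotube markers did not pass the test with all 12 libraries: of the 25, 2 were higher, 5 lower and 18 not called, 28.0% called beside 36.4% of all genes. Without library 6, 3 were higher and 16 lower, 19 of 25, beside 50.8% of all genes. Myog, a transcription factor of fusing myoblasts, had a log2 fold change of -0.29 (edgeR adjusted p = 0.00403) and -0.30 without library 6. Cav3, a caveolin of the muscle membrane, had -0.54 (edgeR adjusted p = 0.00876) and -0.66 without library 6, while Mymk, a membrane protein needed for fusion, rose by 0.36 (edgeR adjusted p = 0.000361) and by 0.32 without it. As a percentage of the summed myotube marker CPM, H19 was at 34.5 to 46.6 in horse serum libraries 1 to 5, at 26.0 in library 6 and at 19.7 to 31.0 with STEM. On this scale horse serum libraries 1 to 5 lay above the STEM libraries, and library 6 lay within the STEM range. The part of the marker genes in the H19 difference was not tested.

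**Figure D1:**
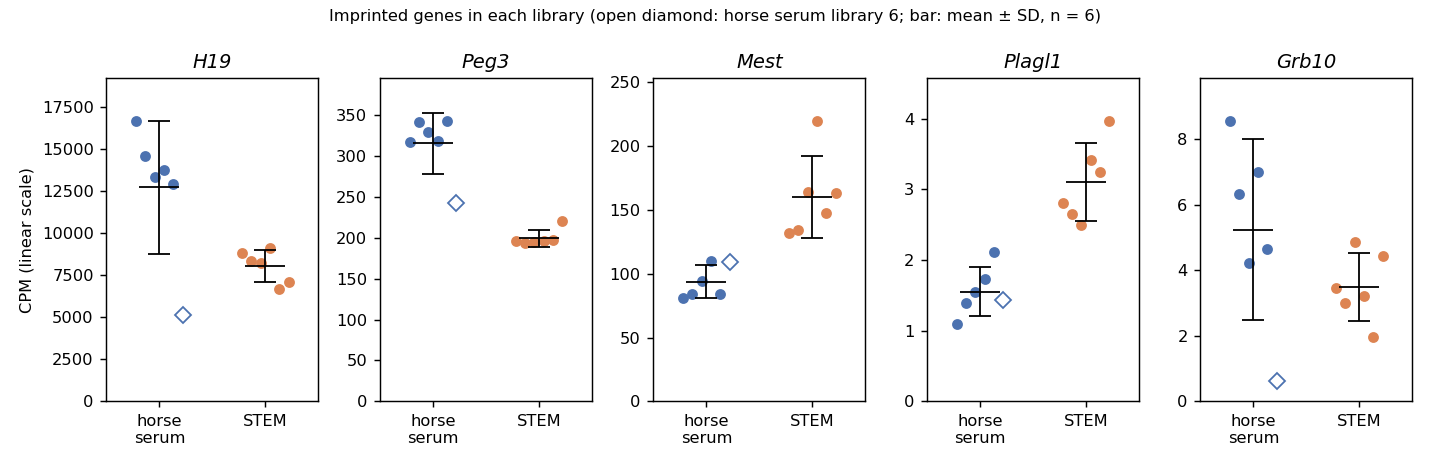
CPM of the 5 tested members in each library, by medium, on linear axes from 0; filled points are libraries, the open diamond is horse serum library 6, and bars are the mean ± SD (n = 6). H19 and Peg3 are lower and Mest and Plagl1 higher with STEM, and library 6 is the lowest horse serum library for H19, Peg3 and Grb10.

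Igf2, the growth factor gene next to H19, is expressed from the paternal copy, and both genes share an enhancer and a control region. Igf2 ranged from 7.14 to 9.53 CPM with horse serum, with a median of 8.08, and from 5.87 to 7.22 CPM with STEM, with a median of 6.44. It fell by 0.35 on the log2 scale (SE 0.092, edgeR adjusted p = 0.00881), and by 0.36 without library 6, with the highest STEM library just above the lowest horse serum library. Its level is uncertain, because 37.2% of its exon bases are free of another gene on the same strand and the rest are shared with Gm49394. The log2 ratio of H19 to Igf2 CPM was 10.5 ± 0.58 with horse serum and 10.3 ± 0.28 with STEM (SD, n = 6), a difference of -0.24 (exact permutation test, two-sided p = 0.398). Library 6 had a ratio of 9.35 and the other horse serum libraries at least 10.6; without it the difference was -0.47 (exact permutation p = 0.00433).

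Meg3, Rian and Mirg are long noncoding RNAs expressed from the maternal copy of the Dlk1-Dio3 domain. As annotated, they hold 3, 6 and 26 of its 114 mature miRNAs, and some of its small nucleolar RNAs (snoRNAs) lie in Rian. Dlk1, expressed from the paternal copy, encodes a transmembrane protein with EGF-like repeats. In these libraries all 4 were at the floor of detection. Meg3, Mirg and Dlk1 had 0 counts in each of the 12 libraries, and Rian had 1 count in library 3 and 1 in library 7. A count of 0 allows a level of up to 0.154 to 0.232 CPM with horse serum and 0.122 to 0.202 CPM with STEM, taking 3 counts per library as the limit and covering counting error only. A difference between the media was not detectable at this depth, and the ratios of Dlk1, Rian and Mirg to Meg3 cannot be given.

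Counts were also few over the whole domain. Between the start of Dlk1 and the end of Dio3 (chr12:109452823-110281097, 828 kb), the table held 116 annotated genes, 67 of them miRNA genes and 23 snoRNA genes. Of the 116, 108 had 0 counts in every library, and none of the miRNA or snoRNA genes had any. These short RNA genes are 90 of the 116, and a total RNA library of this kind may not capture their products. In the whole table, 29620 of 55487 genes had a count in any library. All 12 libraries together had 254 counts there, of 196715873 in all. Of these, 201 belonged to Gm3379, a processed pseudogene and the only gene of the domain that was tested (log2 fold change 0.05, edgeR adjusted p = 0.873), and 53 to the 7 others with any count. Rtl1, a retrotransposon-derived protein gene of the paternal copy, had 1 count in all, and so did Dio3, which encodes the enzyme that inactivates thyroid hormone. Counts were higher on the Dio3 side of the domain, and on the Dlk1 side they were mostly in 1 gene. Genes that lie in or reach into the 500 kb after Dio3 held 233286 counts. Ppp2r5c, a phosphatase subunit, had means of 136 and 124 CPM there (horse serum, then STEM). Dync1h1, the dynein heavy chain, had 475 and 561 CPM and Hsp90aa1, a chaperone, 445 and 516 CPM. Genes in or reaching into the 500 kb before Dlk1 held 1805 counts. Most of these, 1730, were in Wdr25, which extends past the outer edge of that flank, at means of 7.89 and 9.29 CPM. Begain, the next highest there, had 53 counts, so counts were also few in the rest of that flank. These flanking genes were named after their values were seen.

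Reads shared with overlapping genes can be lost in counting. Bases not shared with another gene on the same strand made up 98.5% of the exon sequence of Meg3, 96.6% of Rian, 95.0% of Mirg and 100% of Dlk1. With genes on either strand considered, the shares were 91.7%, 96.6%, 95.0% and 100%. The part of such losses in the low counts was not tested. The domain holds 58 miRNA hairpins with 114 mature miRNAs in RefSeq and 104 distinct seeds among them, of which 10 are carried by more than 1 mature miRNA. The pair below is an example of a shared seed, shown because these mature miRNAs carry the same bases at positions 2 to 8.
miR-379-3p, chr12:109709102-109709123, plus strand: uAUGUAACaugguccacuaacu
miR-411-3p, chr12:109710225-109710246, plus strand: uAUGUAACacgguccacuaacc

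**Figure D2:**
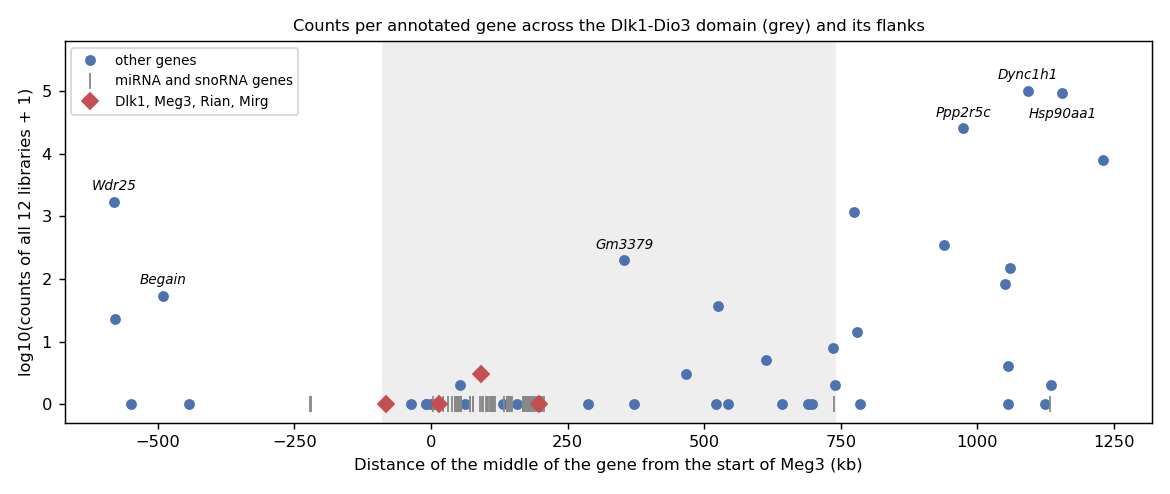
Counts summed over all 12 libraries for each annotated gene, as log10 of the count plus 1, against the distance of the gene's middle from the start of Meg3 in kb; grey marks the Dlk1-Dio3 domain, ticks are miRNA and snoRNA genes and diamonds are the 4 members. The genes of the domain hold 254 counts together, against 233286 for genes that lie in or reach into the 500 kb after it.

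Peg3 is a paternally expressed gene that encodes a large zinc finger protein, and it lies at chr7:6703892-6730431 on the minus strand. Its values were the tightest of the 5 tested members. With horse serum the lowest, median and highest libraries had 242, 324 and 343 CPM, and with STEM 193, 196 and 220 CPM. Every STEM library lay under every horse serum library, library 6 included, which was the lowest of its group. Peg3 fell by 0.66 on the log2 scale (SE 0.073, edgeR adjusted p = 1.01e-05) and by 0.73 without library 6 (SE 0.041, edgeR adjusted p = 1.04e-10), and the exact permutation p was 0.00216 both ways, the smallest these designs allow. The coefficient of variation was 3.67% over horse serum libraries 1 to 5 and 5.16% over the STEM libraries. Per summed myotube marker CPM, Peg3 was at 0.852% to 0.917% in horse serum libraries 1 to 5, at 1.23% in library 6 and at 0.560% to 0.665% with STEM.

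The genes beside Peg3 in its cluster moved the same way. Usp29, a paternally expressed deubiquitinase gene, starts 0.147 kb from the start of Peg3 and runs in the opposite direction. It had 1.90 CPM in the lowest, 3.30 in the median and 4.73 in the highest horse serum library, and 0.735, 1.32 and 1.78 CPM with STEM, so that the groups did not overlap. These levels rest on 37 to 69 counts per library with horse serum and 12 to 30 with STEM. Usp29 fell by 1.35 on the log2 scale (SE 0.23, edgeR adjusted p = 0.0004), and by 1.48 without library 6 (edgeR adjusted p = 3.26e-06). Zim1, a zinc finger gene on the other side of Peg3 that is expressed from the maternal copy, had 15.5 CPM in library 6 and 34.1 to 38.2 CPM in the other horse serum libraries, against 12.4 to 16.7 CPM with STEM. Library 6 thus lay within the STEM range for Zim1, and the other 5 lay above it. Zim1 fell by 1.13 on the log2 scale (SE 0.18, edgeR adjusted p = 0.000415), and by 1.28 without library 6 (edgeR adjusted p = 1.03e-10). The remaining 8 tested genes within 500 kb of the start of Peg3 were not called.

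Peg3 and Usp29 are read outward from a common start region, and its sequence is shown because both genes fell. The 146 bases between the annotated starts lie at chr7:6730432-6730577 (GRCm38), are given on the strand of Peg3, hold 5 CpG dinucleotides and have a GC content of 61.6%.
Peg3-Usp29: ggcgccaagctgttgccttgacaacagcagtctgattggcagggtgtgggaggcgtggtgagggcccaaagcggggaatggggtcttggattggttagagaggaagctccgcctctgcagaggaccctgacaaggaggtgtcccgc
Promoter windows of RefSeq, 250 bases before to 50 after each start, were found for 8 of the 9 members and searched for GGGGCCCC, the core of the sequence that the Plagl1 protein is known to bind, and for CAGCTG, an E-box of the kind bound by MyoD. TGACGTCA, the binding sequence of CREB, was added after the Peg3 sequence had been seen. All are palindromes, read the same on both strands. GGGGCCCC stood in the Peg3 window and in no other member's, against 1.07% of 32817 windows. TGACGTCA stood in the windows of Peg3 and Meg3, against 1.79% of all windows, and CAGCTG in 1 window of Mest, against 16.3%. Both Peg3 matches lie on the Usp29 side of the stretch above, also within the overlapping Usp29 window, and they are shown with 8 bases on each side and the motif in capitals.
GGGGCCCC match, chr7:6730605-6730628, minus strand: tctgcttgGGGGCCCCtaacactg
TGACGTCA match, chr7:6730582-6730605, minus strand: gactccgtTGACGTCAactccgtg
A match is a description of the letters in these windows and no evidence of binding.

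Mest is a paternally expressed gene for an enzyme of the alpha/beta hydrolase family, used as a marker of growth in fat and embryonic tissue, and it lies at chr6:30723547-30748465 on the plus strand. Its lowest, median and highest values were 81.0, 89.3 and 110 CPM with horse serum and 132, 156 and 220 CPM with STEM. Each STEM library was above each horse serum library, and library 6 was within the range of its group. Mest rose by 0.77 on the log2 scale (SE 0.12, 95% interval 0.50 to 1.04, edgeR adjusted p = 0.000363) and by 0.82 without library 6 (edgeR adjusted p = 0.000953). The highest STEM value was that of library 10; without it the log2 fold change was 0.66. Exon bases free of a gene on either strand made up 76.9% of Mest, and the rest overlaps Copg2 on the opposite strand. Copg2, a coat protein gene, had a log2 fold change of -0.10 (edgeR adjusted p = 0.140).

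Plagl1, at chr10:13060504-13131694 on the plus strand, is paternally expressed. Its level was low, with 16 to 35 counts per library with horse serum and 38 to 69 with STEM. In CPM, the lowest, median and highest values were 1.10, 1.49 and 2.11 with horse serum and 2.50, 3.03 and 3.97 with STEM, and the groups did not overlap. Plagl1 rose by 0.98 on the log2 scale (SE 0.17, 95% interval 0.62 to 1.35, edgeR adjusted p = 0.000448), and by 0.95 without library 6 (edgeR adjusted p = 0.000232). The difference corresponds to 1.98-fold higher CPM.

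Grb10, at chr11:11930508-12038683 on the minus strand, encodes an adaptor that dampens signalling from the insulin and IGF1 receptors and is expressed from the maternal copy in most tissues. It varied most of the tested members among horse serum libraries, with a coefficient of variation of 52.8%. Its lowest, median and highest values were 0.615, 5.49 and 8.57 CPM with horse serum and 1.96, 3.35 and 4.87 CPM with STEM. The lowest horse serum value, from 12 counts, was that of library 6, and the ranges overlapped. The log2 fold change was -0.57 (SE 0.42, 95% interval -1.48 to 0.35, edgeR adjusted p = 0.319). Without library 6, Grb10 was called lower, at -0.82 (SE 0.22, 95% interval -1.29 to -0.35, edgeR adjusted p = 0.00618; exact permutation p = 0.0195), and 4 of 6 STEM libraries lay under all 5 horse serum libraries. The Grb10 result thus turned on 1 library.

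Per kilobase of exon, the members differed widely in level. With horse serum H19 had 5174 CPM per kb, Mest 23.8, Peg3 23.7, Grb10 0.576 and Plagl1 0.199. Mest and Peg3 overlapped there, at 20.5 to 27.8 and 18.2 to 25.7 CPM per kb. With STEM they did not: Mest was at 33.5 to 55.7 CPM per kb and Peg3 at 14.5 to 16.5. Plagl1 and Grb10, at 0.396 and 0.384 CPM per kb with STEM, had overlapping ranges in that medium.

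The other imprinted genes were taken from lists of network partners and of paternally and maternally expressed genes. The parental labels, here and for the members, are general descriptions of these genes. Counts per gene do not separate the parental copies, so expression from 1 copy was not measured in these cells. These lists overlap, and Cdkn1c and Igf2r, for example, stand on more than 1 of them. Together they hold 56 different genes, of which 35 were tested. Of these, 16 were called, 45.7%, with 5 higher and 11 lower, beside 36.4% of all genes; the median log2 fold change was -0.10. Without library 6, 19 were called, 5 higher and 14 lower, beside 50.8% of all genes. Paternally expressed genes had 1 higher and 8 lower of 16 tested, with a median of -0.34, and without library 6 the counts were again 1 and 8, with a median of -0.31. Maternally expressed genes had 4 higher and 3 lower of 19, with a median of -0.01, and without library 6 they had 4 higher and 6 lower, with a median of -0.04. The difference between these lists was not tested. Network partners had 1 higher and 2 lower of 9, and 1 higher and 3 lower without library 6.

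Cdkn1c, the cyclin-dependent kinase inhibitor p57 that holds differentiating muscle cells out of the cell cycle, lies in the cluster next to H19 and is maternally expressed. It had 25.8 CPM in the lowest and 41.0 in the highest horse serum library, and 93.9 and 144 CPM with STEM. The groups were far apart. Cdkn1c rose by 1.85 on the log2 scale (SE 0.12, edgeR adjusted p = 2.02e-07) and by 1.79 without library 6, and 69.3% of its exon bases are free of a gene on either strand.

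Igf2r, a receptor that clears IGF2 and is maternally expressed in the mouse, averaged 267 ± 13.8 CPM in horse serum libraries and 207 ± 11.8 CPM in STEM libraries (SD, n = 6), a log2 fold change of -0.36 (edgeR adjusted p = 5.14e-05). Peg13, a paternally expressed noncoding RNA, went from 5.05 ± 0.68 to 8.98 ± 0.82 CPM, a log2 fold change of 0.82 (edgeR adjusted p = 3.22e-05). Tssc4, a gene near H19 that encodes a spliceosome assembly factor, rose by 0.44 (edgeR adjusted p = 6.89e-05), and Gab1, an adaptor of growth factor receptors, fell by 0.41 (edgeR adjusted p = 0.000434). All of these kept their direction and call without library 6.

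**Figure D3:**
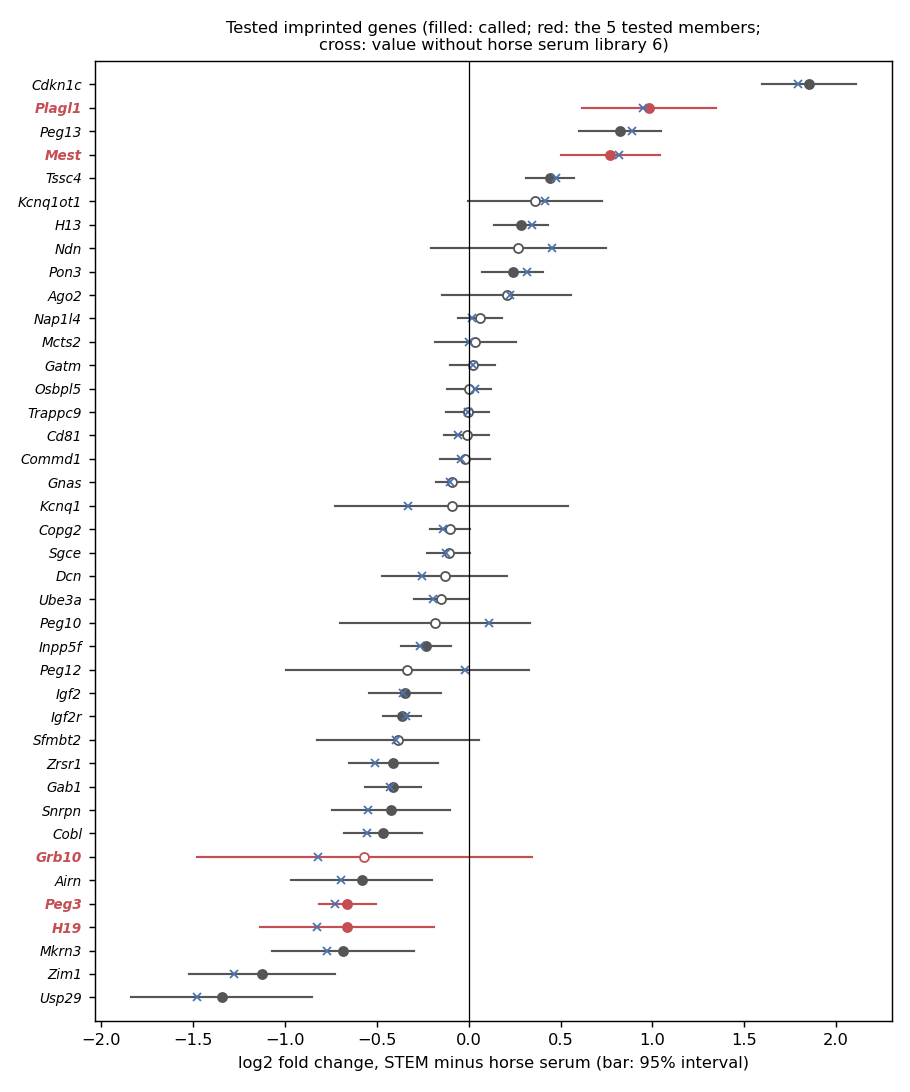
Log2 fold change, STEM minus horse serum, with its 95% interval for the 5 tested members (red) and 35 other tested imprinted genes; filled points passed edgeR's test and crosses give the value without horse serum library 6. Cdkn1c is highest at 1.85 and Usp29 lowest at -1.35; the interval of Grb10 crosses 0.

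The libraries were also compared gene by gene as log2 CPM minus the mean of the horse serum libraries. H19, Peg3, Usp29, Zim1 and Grb10 shared a low value in library 6, at 5124, 242, 1.90, 15.5 and 0.615 CPM, each the lowest of the horse serum group. Cdkn1c, which rose with STEM, was also lowest in library 6, at 25.8 CPM with the next at 26.6 CPM. Igf2, Mest, Plagl1, Peg13 and Igf2r were not lowest there. The myoblast and reserve cell markers include satellite cell genes and also cell cycle genes such as Mki67, Top2a and Cdk1. Of these markers, 2 were higher and 11 lower of 19 tested, 68.4% called beside 36.4% of all genes. Without library 6, 4 were higher and 11 lower, beside 50.8% of all genes. Those of lowest p were Vcam1, an adhesion molecule of satellite cells, at -0.80 and Cd34, a surface marker of quiescent satellite cells, at -0.75. With them was Spry1, a receptor signalling inhibitor of quiescent cells, at -0.63 on the log2 scale. Without library 6, Vcam1, Cd34 and Spry1 were at -0.82, -0.80 and -0.61. The summed level of the whole list was 1647 to 2200 CPM with horse serum and 1308 to 1509 CPM with STEM. Of the fat cell markers 2 of 3 tested were lower, the transcription factor Pparg at -0.84 and the lipase Lpl at -1.73 (-0.90 and -1.88 without library 6), with sums of 38.1 to 50.7 against 29.2 to 33.0 CPM. The part of these cell type markers in the member results was not tested.

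**Figure D4:**
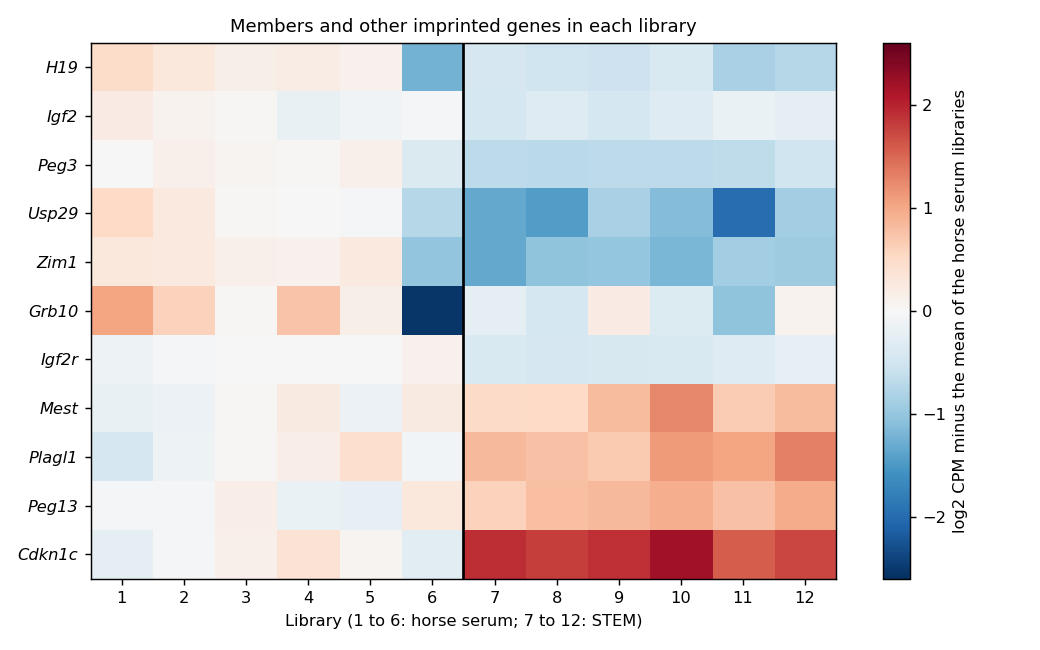
Log2 CPM minus the mean of the horse serum libraries for 11 imprinted genes (rows) in the 12 libraries (columns), with a line between horse serum and STEM; the colour scale runs from blue (lower) to red (higher). Values run from -2.54, for Grb10 in library 6, to 2.18, for Cdkn1c with STEM.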

How the data were processed

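Stranded, ribosomal RNA-depleted C2C12 libraries (12, 6 per medium), were analysed from 1 table of gene counts that the authors deposited. Per the labels' processing notes, reads were aligned with STAR 2.7.3a to GRCm38 and counted with featureCounts 1.6.3, and DESeq2 1.26.0 was used; the strand setting and the annotation release are not given in the sources used here. Reads shared by overlapping genes may have been dropped. Gene names and positions came from GENCODE M21 and covered all but 0.00268% of counts; promoters and miRNAs came from RefSeq.

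The members and lists were chosen with earlier results of these data known. Groups followed the labels. Genes passing filterByExpr (14175) were tested with edgeR 4.0.16 in R 4.3.3 (TMM, robust quasi-likelihood; called at an adjusted p of at most 0.05). SEs came from the fold change and F; CPM used TMM-scaled totals. Log2 CPM had a prior count of 2, ratios an offset of 0.5. Exact permutation tests ran over 924 regroupings, or 462 without library 6. Alternatives were DESeq2 1.42.0, limma-voom (limma 3.58.1), other scalings and filters, thinning and leaving out each library. The procedure was tested on simulated data. Named genes were the members, their locus partners, small RNA genes inside members, and up to 3 called genes of lowest p per list and among genes within 500 kb of a member.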

Additional observations from a re-analysis of the deposited data

Results flagged for a closer look

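Of 64 groups of 6 libraries examined, 9 had a library whose gap to the nearest other was past Dixon's 95% critical value. Chance gives about 1 in 20 for independent groups. These groups share libraries and genes, as H19 is also in its ratio to Igf2 and Cav3 in the summed myotube markers. The 9 are therefore not set against chance. Library 6 of the horse serum group accounted for 6 of them: H19 at 5124 CPM, Peg3 at 242 CPM, Zim1 at 15.5 CPM, Cav3 at 89.9 CPM, the log2 ratio of H19 to Igf2 at 9.35 and the summed myotube markers at 19681 CPM, each below the rest of its group. The other 3 were in STEM libraries and above their group: Peg3 in library 12 at 220 CPM with the next at 197 CPM, the summed paternally expressed genes in library 12 at 203 CPM, and Mest in library 10 at 220 CPM with the next at 164 CPM.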

How the results depend on the processing

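Over the other scalings, filters, tools and thinning, Peg3 (log2 fold change -0.68 to -0.64), Mest (0.75 to 0.79) and Plagl1 (0.96 to 1.04) kept direction and call, and Grb10 (-0.62 to -0.18) was not called. H19 kept its direction and lost its call with no filter (-0.67, edgeR adjusted p = 0.0944) and with limma-voom (-0.59, adjusted p = 0.0806); the cause was not tested. With no filter, 3 of the 25 myotube markers and 1 of the 8 listed leukocyte and endothelial markers were called. In that setting 29620 genes were tested, of which 2308 were called higher and 2340 lower. Leaving out each library gave these ranges: H19 -0.82 to -0.57, Peg3 -0.73 to -0.64, Mest 0.66 to 0.82, Plagl1 0.90 to 1.09, Grb10 -0.82 to -0.37 and the log2 H19 to Igf2 ratio -0.47 to -0.16. Counts of calls ranged from 4459 to 7245 over all genes, 3 to 5 for the members, 3 to 4 for network partners, 8 to 10 for paternally and 6 to 10 for maternally expressed genes, 5 to 19 for myotube, 13 to 15 for myoblast and reserve cell, 2 to 2 for adipocyte, 0 to 1 for leukocyte and endothelial and 0 to 0 for pluripotent cell markers, and 14 to 27 for genes near the members, a count added after seeing the data. The highest counts of all genes, members, myotube markers and genes near the members came without horse serum library 6. The median log2 fold change of all genes stayed between -0.012 and 0.031. Plagl1, Grb10 and Usp29 rest on few counts per library, and no level under 3 counts can be told from 0. No paired analysis was possible because library numbers do not repeat between the groups.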

Other observations

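Of the 284 annotated genes that start within 500 kb of a member, 47 were tested, and 8 were higher and 10 lower with STEM, 38.3% beside 36.4% of all genes tested. Without library 6, 27 of these neighbours were called. The neighbours tested in that setting were not counted, so no share can be set beside the 50.8% of all genes called there. Around H19 there were 3 higher and 2 lower of 14 tested, around Mest 4 and 1 of 12, around Plagl1 1 and 3 of 7, and around Grb10 0 and 2 of 3. Stx11, a membrane fusion gene near Plagl1, averaged 26.7 CPM in horse serum libraries and 17.4 CPM in STEM libraries and had a log2 fold change of -0.61 (edgeR adjusted p = 2.40e-06; -0.63 without library 6), opposite in sign to Plagl1. Fignl1, a DNA repair gene near Grb10, had a log2 fold change of -0.67 (edgeR adjusted p = 6.70e-05; -0.63 without library 6).

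Within the Peg3 cluster, the log2 ratio of Usp29 to Peg3 CPM ran from -6.98 to -6.06 with horse serum, with a median of -6.60, and from -8.01 to -6.75 with STEM, with a median of -7.19. The log2 ratio of Zim1 to Peg3 CPM was -3.25 to -3.05 in horse serum libraries 1 to 5, -3.96 in library 6 and -3.98 to -3.56 with STEM. These ratios were chosen after the values were seen and were not tested.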
